A study of Homo sapiens with 2 samples.

Results

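Axon guidance ligands and receptors were compared between the human Ewing sarcoma cell line MHH-ES-1 and a radiation-adapted derivative of it. The genes were taken by symbol from the platform's gene names: the Eph receptor genes (EPHA and EPHB), their ephrin ligands (EFNA and EFNB), the semaphorins (SEMA), their plexin receptors (PLXN), the neuropilins NRP1 and NRP2, and the Slit ligands with their Robo receptors. The rule used symbols and no measured value, but it was set with earlier results of these data known. SLITRK genes were left out. The rule found 59 genes with 98 probes, of 20046 named genes and 47323 probes on the array. Total RNA of each line was hybridised to 1 Illumina bead array, so there were 2 samples and 1 array per group. The first group is the wild-type line with no treatment named. The second is the radiation-adapted line, whose short label carries 4 Gy; how the dose was given and when RNA was taken are not given in the sources used here. Both are derived from a single cell line, and whether the adapted line is a clone or a pool is not stated. Without replicates no difference could be tested, and every ratio describes these 2 RNA samples.

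These families steer growing axons, migrating neural crest cells and sprouting vessels. Ephrins stay bound to the cell surface and signal through Eph receptor tyrosine kinases, and in the reverse direction into the cell that carries the ephrin. Semaphorins, secreted or membrane-bound, act on plexins, and most secreted ones need a neuropilin to bind them. Secreted Slit proteins act on Robo receptors and mostly repel. All of them act on the actin cytoskeleton of the cell that receives them.

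The detection p-value sets a probe against its array's negative controls, and values under 0.01 were taken as detection. Of the 59 genes, 39 (66.1%) had a detected probe on at least 1 array, against 56.6% of all named genes. Both arrays detected 28 of them, the radiation-adapted array alone 6 (15.4%, background 13.5%) and the wild-type array alone 5 (12.8%, background 5.57%). The 20 genes detected on neither array were EFNA2, EFNA3, EFNA5, EPHA1, EPHA5, EPHA6, EPHA7, EPHB6, NRP2, PLXNA2, PLXNB3, PLXNC1, ROBO4, SEMA3B, SEMA3D, SEMA3G, SEMA5A, SEMA6D, SLIT1 and SLIT3. Their RNA was not well above background at these probes by this cut. With a cut of 0.05, 42 genes were detected, which adds NRP2, EPHA1 and ROBO4. NRP2 missed the cut of 0.01 narrowly at 1 of its 4 probes. That probe had signals of 121.0 in the wild type (0.822) and 157.6 in the radiation-adapted cells (0.0104).

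In the radiation-adapted cells 8 of the 39 detected genes (20.5%) were at least 2-fold higher, where 12.4% of the 11352 detected named genes were. Another 5 (12.8%) were at least 2-fold lower, where 10.3% of all detected genes were. The remaining 26 lay within 2-fold or had only a bound there. The higher genes were the Eph receptor genes EPHA4, EPHA3 and EPHB1, the ephrin gene EFNB1, the semaphorin genes SEMA4D, SEMA4B and SEMA3E, and the plexin gene PLXNA1. The lower genes were the semaphorin genes SEMA4G, SEMA6A and SEMA3C, the neuropilin gene NRP1 and the Slit gene SLIT2. The median log2 ratio (radiation-adapted minus wild type, here and throughout) over the 39 genes was 0.23, against -0.01 over all detected genes. Over the 28 genes detected on both arrays, 5 were higher (17.9%, background 10.9%) and 4 lower (14.3%, background 10.4%). In bulk RNA such as this, fewer cells of a type and less RNA per cell cannot be told apart.

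**Figure D1:**
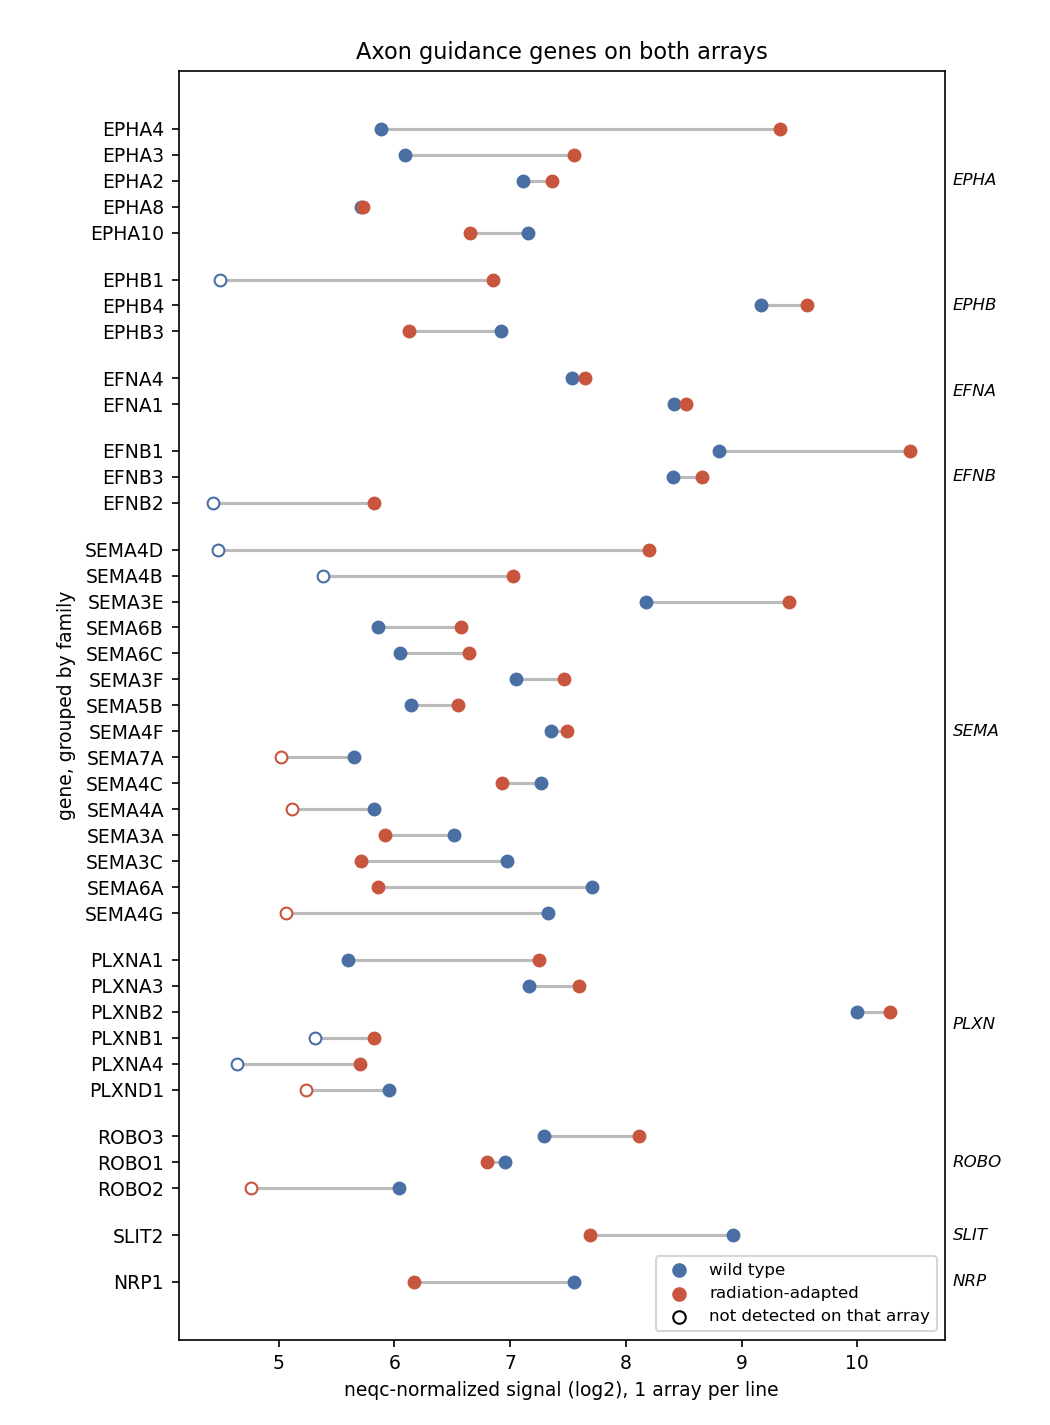
Normalized signal (log2, x axis) of the 39 detected axon guidance genes (y axis, grouped by family) on the wild-type array (blue) and the radiation-adapted array (red), 1 array per line, with open circles where the probe was not detected on that array. EPHA4, SEMA4D and EPHB1 have the longest lines running to the right, from 5.88 to 9.33 for EPHA4.

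The deposited bead signals are given below for each gene that carries a result, followed by the ratio of values after background correction and quantile normalization. Background lies near the array medians, which were 140.3 (wild type) and 142.4 (radiation-adapted), so for the genes past 2-fold the deposited signals differ by a smaller factor than the corrected values. For genes that only 1 array detected, the ratio was taken against the lowest signal of any detected probe on the other array, or against its own signal there if higher, and is written as "at least". The spread that could be measured was that between different probes of a gene on the same arrays, an SD of 0.45 in the log2 ratio over 2269 genes. It leaves out the spread between cultures. Of the 39 genes 17 lay within 1 SD of 0 and 22 beyond it, a share of 56.4% beyond, close to the 53.3% of all detected genes.

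Among the Eph receptors, 13 genes were named, 8 were detected, 3 passed the 2-fold rule upward and 0 downward. EPHA4, a receptor that binds ephrins of both the A and the B class, had a signal of 167.0 in the wild type (detection p-value 0.0026) and 802.0 in the radiation-adapted cells (detection p-value 0). Its corrected level was 10.9-fold higher in the radiation-adapted cells, the highest measured ratio of the 39 genes. EPHA3, which prefers ephrin-A5, had signals of 174.4 (detection p-value 0.0013) and 323.6 (0). It was 2.75-fold higher in the radiation-adapted cells. The other EPHA3 probes were detected on neither array, with signals of 122.2 and 144.8 at one and 134.6 and 134.3 at the next. For both genes the wild-type signal stood close to the detection limit, so their ratios lean on a dim value.

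EPHB1, a receptor for B-class ephrins, had a signal of 123.9 in the wild type, not well above background (detection p-value 0.713), and 243.5 in the radiation-adapted cells (0). It was at least 2.39-fold higher there. EPHB3 went the other way within the 2-fold limit, with signals of 221.5 (0) and 192.9 (0.0013) and a log2 ratio of -0.79. EPHB4, the receptor known for marking venous endothelium, had signals of 644.7 and 915.7 and a log2 ratio of 0.40, within the spread between probes. EPHA2, a receptor common in epithelia and many tumours, stood at 0.25 and EPHA8 at 0.02. EPHA10, which lacks an active kinase, had the lowest ratio of the EPHA genes, with signals of 241.0 and 227.6 (both detection p-values 0) and a log2 ratio of -0.51. A second EPHA10 probe, detected on the radiation-adapted array alone, had signals of 131.5 and 163.1 and its bound fell below 0, so it gives no fold.

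Of 8 ephrin genes 5 were detected, and EFNB1 was the 1 past 2-fold. EFNB1, which encodes the transmembrane ligand ephrin-B1, had a signal of 522.6 in the wild type and 1564.8 in the radiation-adapted cells, both with a detection p-value of 0. It was 3.15-fold higher, and this ratio rests on bright signals on both arrays. The other transmembrane ephrin genes were EFNB3, at 419.1 and 555.4 with a log2 ratio of 0.25, and EFNB2. EFNB2, known as the arterial partner of EPHB4, was not well above background in the wild type (signal 120.3, detection p-value 0.848) and was detected in the radiation-adapted cells (177.5, 0.0013), at least 1.18-fold higher. The ephrin-A genes, whose products are anchored to the membrane by a lipid, stayed near a ratio of 0. EFNA1 had signals of 420.6 and 517.4 (log2 ratio 0.11, and 0.22 at its other probe), and EFNA4 had signals of 277.8 and 338.1 (0.12, and 0.17 at its other probe). Both pairs of probes thus lay within the spread between probes.

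The semaphorins formed the largest group, with 20 genes named and 15 detected, of which 3 passed the 2-fold rule in each direction. Their median log2 ratio was 0.14. Class 4 semaphorins, membrane-bound ligands, held both ends of the range. SEMA4D, which acts on plexin-B1 and is known from lymphocytes, neurons and bone, had a wild-type signal of 123.2, not well above background (detection p-value 0.747), and a radiation-adapted signal of 441.4 (0). It was at least 6.08-fold higher. SEMA4B had signals of 152.8 (0.0325) and 259.6 (0), at least 2.69-fold higher, while its other probe (133.8 and 138.7) was detected on neither array. SEMA4G showed the reverse, with 256.4 in the wild type (0) and 147.9 in the radiation-adapted cells (0.0533), at least 3.91-fold lower. Its other detected probe was dim, with signals of 159.3 and 154.5 and at least 1.21-fold lower, so the probes agreed in direction and not in size.

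The other class 4 genes stayed within 2-fold. SEMA4C had nearly equal deposited signals of 251.3 and 250.4, and a log2 ratio of -0.34 after normalization. SEMA4F had signals of 259.1 and 315.9 at its brighter probe (0.14) and 175.7 and 154.2 at its dimmer one (at least 1.70-fold lower), so the sign of SEMA4F depends on the probe. SEMA4A, at 164.8 (0.0026) and 149.6 (0.0351), was detected in the wild type alone. The only class 7 semaphorin, the membrane-anchored SEMA7A, was also detected there alone, at 159.8 (0.00779) and 146.5 (0.061). Their bounds were log2 ratios of -0.46 and -0.29.

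Of 7 class 3 semaphorin genes, which encode secreted ligands, 4 were detected. SEMA3E, unusual in its class for binding plexin-D1 without a neuropilin, had signals of 371.1 and 839.8 (both detection p-values 0) and was 2.35-fold higher in the radiation-adapted cells. Its other probe (117.7 and 121.4) was detected on neither array. SEMA3C, known for guiding neural crest cells into the heart, had signals of 225.8 (0) and 172.2 (0.0026) and was 2.40-fold lower. SEMA3A, the classical repellent that acts through NRP1 and class A plexins, was lower within the 2-fold limit, with 194.7 and 181.9 and a log2 ratio of -0.59. SEMA3F, which prefers NRP2, had signals of 231.8 and 311.7 and a ratio of 0.41. The 3 detected class 3 genes of chromosome 7 thus differed in sign, SEMA3E above 0 and SEMA3A and SEMA3C below it.

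Among the transmembrane classes 5 and 6, SEMA6A was 3.60-fold lower in the radiation-adapted cells, with signals of 299.4 (0) and 178.8 (0.0013). SEMA6A is a ligand of plexin-A2 and plexin-A4. The related genes SEMA6B and SEMA6C had log2 ratios of 0.72 and 0.60, on the opposite side of 0 from SEMA6A, and SEMA5B had 0.41.

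Plexins and neuropilins receive these ligands. Of 9 plexin genes 6 were detected and 1 passed 2-fold. PLXNA1, the co-receptor of neuropilins for class 3 semaphorins, had a signal of 158.4 in the wild type, just inside detection (0.00909), and 284.1 in the radiation-adapted cells (0). It was 3.14-fold higher. PLXNA3 had a log2 ratio of 0.44. PLXNB2, a plexin found in many cell types, had signals of 1091.6 and 1402.3 and a ratio of 0.28. PLXNB1, the SEMA4D receptor, was detected in the radiation-adapted cells alone (151.3 at 0.0429 against 177.3 at 0.0013), at least 1.17-fold higher, and PLXNA4 likewise (131.3 against 171.9), at least 1.08-fold higher. PLXND1, the SEMA3E receptor, had the lowest plexin ratio. It was detected in the wild type (169.5, 0.0026) and not in the radiation-adapted cells (153.8, 0.0169), at least 1.51-fold lower.

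NRP1, a co-receptor for class 3 semaphorins and for VEGF-A, was 2.61-fold lower in the radiation-adapted cells, with signals of 280.6 and 195.4, both detected at 0. Its other probe had signals of 193.1 (0) and 157.6 (0.0104) and was at least 2.18-fold lower. NRP1 was the 1 gene past 2-fold with a further detected probe also past 2-fold.

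In the Slit and Robo families SLIT2 was the 1 gene past 2-fold. SLIT2 had signals of 562.2 and 344.1, both detected at 0, and was 2.35-fold lower in the radiation-adapted cells. Its receptor gene ROBO1 had signals of 224.5 and 239.5. The ROBO1 log2 ratio was -0.16, and it lay above 0 with median scaling or with no scaling between the arrays, so it has no settled sign. Under those scalings the all-gene median was 0.16 and 0.23 in place of -0.01, and every ratio printed here is relative to quantile scaling. ROBO2 was detected in the wild type (172.4, 0.0013) and not in the radiation-adapted cells (137.5, 0.205), at least 1.60-fold lower. ROBO3, which lets commissural axons cross the midline, had the highest ratio of these genes, with signals of 253.5 and 423.3 and a log2 ratio of 0.82.

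**Figure D2:**
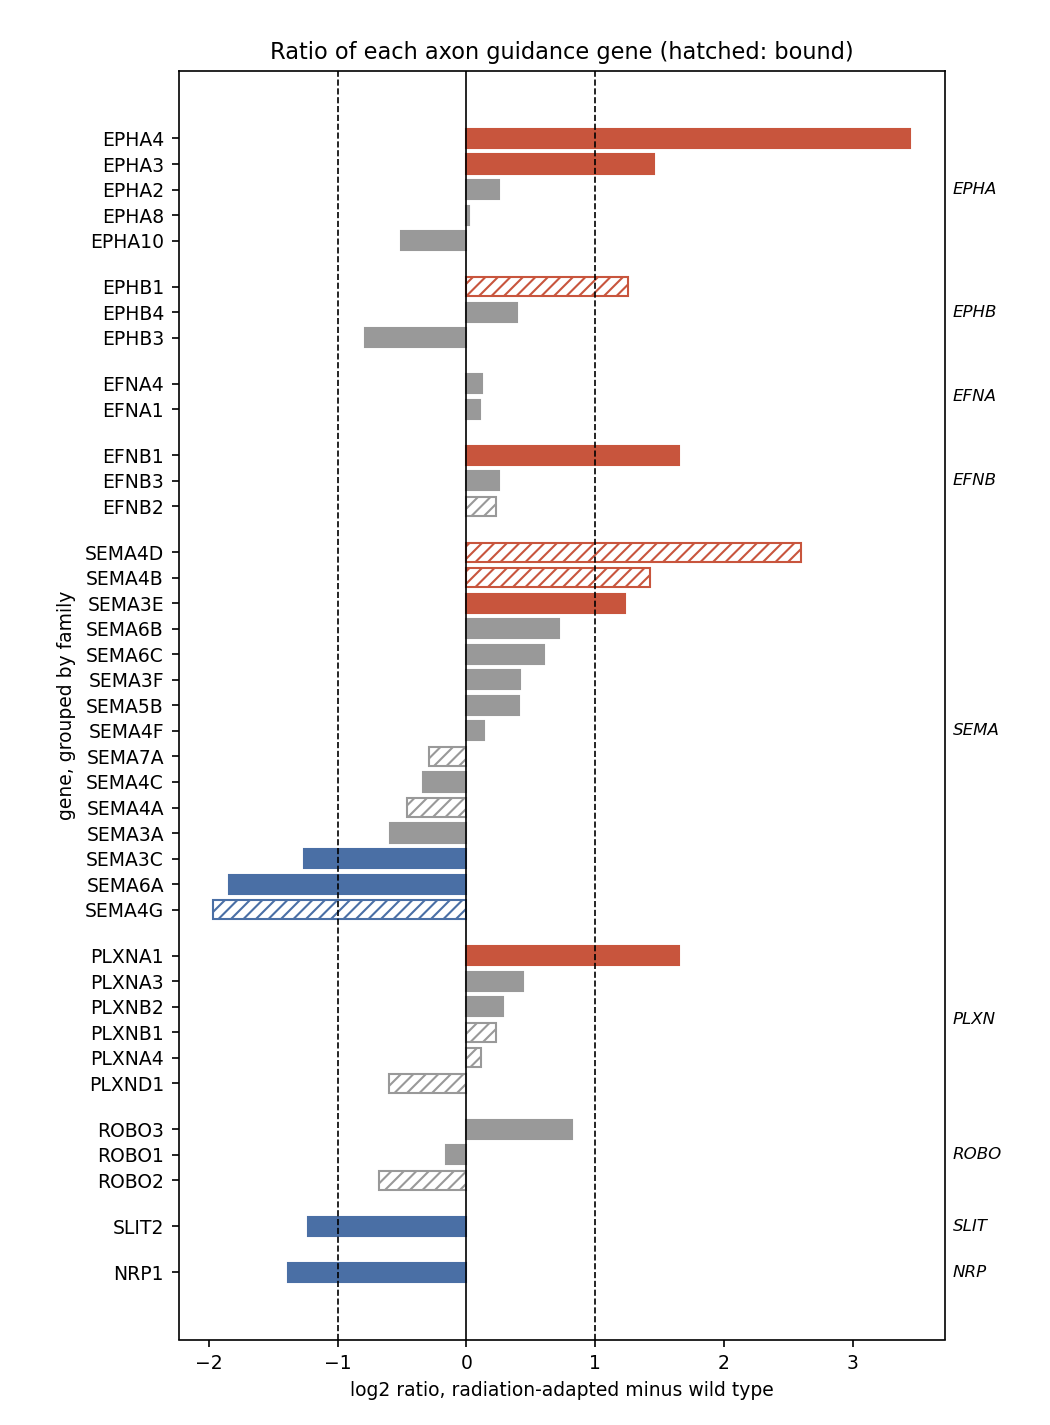
Log2 ratio (x axis, radiation-adapted minus wild type) of each detected axon guidance gene (y axis, by family), with dashed lines at 2-fold. Solid bars are genes detected on both arrays, hatched bars are bounds. The Eph receptor and ephrin genes past 2-fold all lie to the right, while the semaphorins hold 3 on each side.

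Read as ligands and receptors, 4 of 21 detected ligand genes were higher and 4 lower, and 4 of 18 detected receptor genes were higher and 1 lower. In the Eph and ephrin families together, the 4 genes past 2-fold, of 13 detected, were all higher (median log2 ratio 0.25). In the semaphorin, plexin and neuropilin families, 4 of 22 passed it in each direction, with a median of 0.18. The counts are small, the genes were not tested against the rest of the array, and the background shares above apply to each.

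The start regions of 4 of these genes are shown because they stand for the higher and the lower genes and differ widely in base composition. Each window runs from 250 bases before to 50 bases after a transcription start, in RefSeq's annotation of GRCh38.p14, and is written 5′ to 3′ on the gene's strand. Capitals mark CCGGAA, the core that ETS factors such as FLI1 prefer, on either strand.
EPHA4, chr2:221574153-221574452, minus strand: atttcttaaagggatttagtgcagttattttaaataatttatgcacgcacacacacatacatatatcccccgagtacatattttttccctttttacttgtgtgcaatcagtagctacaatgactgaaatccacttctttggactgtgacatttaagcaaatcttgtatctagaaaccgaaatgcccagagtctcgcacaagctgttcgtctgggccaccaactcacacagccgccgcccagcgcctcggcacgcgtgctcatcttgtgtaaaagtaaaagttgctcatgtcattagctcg
EFNB1, chrX:68828771-68829070, plus strand: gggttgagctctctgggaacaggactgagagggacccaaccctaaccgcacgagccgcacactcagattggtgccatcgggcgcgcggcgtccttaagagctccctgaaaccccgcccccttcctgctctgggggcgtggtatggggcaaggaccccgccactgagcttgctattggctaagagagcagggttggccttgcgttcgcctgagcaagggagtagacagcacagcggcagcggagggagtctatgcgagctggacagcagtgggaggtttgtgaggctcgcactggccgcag
PLXNA1, chr3:126982865-126983164, plus strand: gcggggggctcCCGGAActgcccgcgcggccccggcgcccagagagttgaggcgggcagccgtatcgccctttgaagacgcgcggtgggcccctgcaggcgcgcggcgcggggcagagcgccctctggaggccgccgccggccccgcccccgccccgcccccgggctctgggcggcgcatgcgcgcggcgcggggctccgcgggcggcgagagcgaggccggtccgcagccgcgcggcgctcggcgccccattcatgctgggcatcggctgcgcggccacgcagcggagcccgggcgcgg
SLIT2, chr4:20251655-20251954, plus strand: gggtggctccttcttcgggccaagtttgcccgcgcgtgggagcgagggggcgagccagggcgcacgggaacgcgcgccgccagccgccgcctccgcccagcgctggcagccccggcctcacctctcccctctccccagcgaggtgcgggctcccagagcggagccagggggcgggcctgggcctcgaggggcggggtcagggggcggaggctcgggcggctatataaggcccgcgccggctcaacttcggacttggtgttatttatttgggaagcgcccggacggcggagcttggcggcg
The EPHA4 window, which spans the first-listed of 2 annotated starts, has 43.0% G and C and the PLXNA1 window 83.0%, with 63.7% for EFNB1 and 74.3% for SLIT2. The median was 65.7% over 52 windows of the 33 detected genes that matched, and 58.7% over all 35116 windows. CCGGAA was searched on both strands, with GGAAGGAA, a pair of the GGAA units that EWSR1-FLI1 binds in repeats. These motifs can share 4 bases and so overlap. The core CCGGAA was present in 7 of 52 windows of the detected genes (13.5%) and in 17.2% of all windows. By group it was in 3 of 12 windows of the 8 higher genes (PLXNA1 and SEMA4B), in 4 of 35 windows of the genes within 2-fold (PLXNB1 and SEMA4A) and in 0 of 5 windows of SLIT2 and the other lower genes that matched, which leaves out NRP1 and SEMA6A. GGAAGGAA was present in 2 of 52 windows (3.85%), those of EFNA4 and PLXNB1, and in 3.67% of all windows. A match is a description of the letters and not a binding site, and no conclusion about a factor follows from either count.

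Around some of the 39 genes many neighbours differed between the lines in the same direction. Each ratio was therefore set beside the median of its 20 nearest detected genes, 10 on each side in chromosome order. This median was below -0.5 for 7 of the 39 genes and above 0.5 for 1. The same share over all detected genes was not taken, so whether the count is unusual is not known. The 7 are also not separate regions. SEMA3A, SEMA3C and SEMA3E lie on chromosome 7 with overlapping neighbours, and SEMA3F and PLXNB1 both lie on chromosome 3. Among the 13 genes past 2-fold, these medians ran from -0.56 to 0.44. EPHA4 stood on chromosome 2 with a neighbour median of -0.02, EFNB1 on chromosome X with -0.13, SLIT2 on chromosome 4 with 0.00 and NRP1 on chromosome 10 with -0.01. After the neighbour median was subtracted, 11 of the 13 still lay 2-fold from 0. The 2 that did not were EPHB1 on chromosome 3 (a bound of 0.89) and SEMA3C on chromosome 7 (-0.74). The same count over all called genes of the array was not taken. EFNB2, SEMA3F and PLXNB1, within 2-fold before, lay past it after the subtraction. With them, 10 of the 39 genes were higher and 4 lower, where 11.6% and 9.39% of all detected genes were.

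For some genes the neighbours differed more than the gene itself. EFNB2 on chromosome 13 had a bound of 0.23, while its neighbours had a median of -1.28, and 11 of 20 were at least 2-fold lower. SEMA3F on chromosome 3 had a ratio of 0.41 with a neighbour median of -1.07, and PLXNB1, also on chromosome 3, had a bound of 0.23 with a median of -0.89. SEMA3E lay 1.79 above its neighbours' median of -0.56. SEMA3A, with the same neighbour median and a ratio of -0.59, lay 0.03 below it. The neighbours of these chromosome 7 semaphorins overlap and include each other. ROBO3 on chromosome 11 was close to its surroundings, at 0.82 beside 0.61. Whether copy number differs between the lines was not tested.

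**Figure D3:**
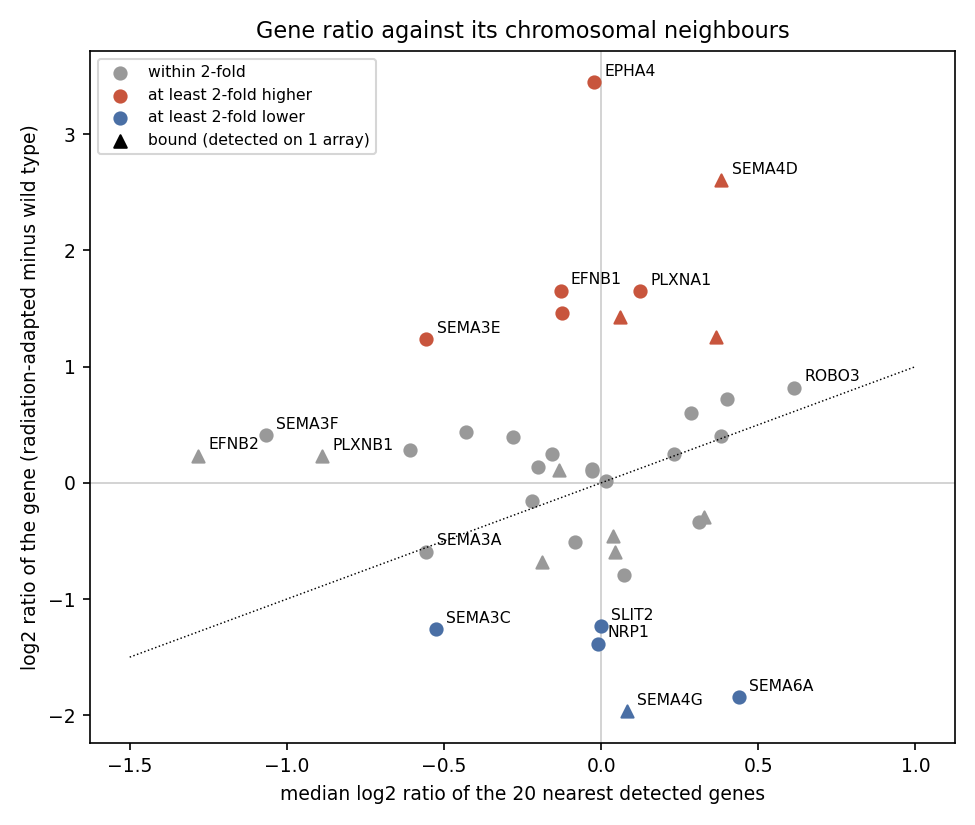
Log2 ratio of each detected axon guidance gene (y axis) against the median log2 ratio of its 20 nearest detected genes (x axis). Triangles are bounds, colours mark the 2-fold rule and the dotted line marks equal values. EFNB2, SEMA3F and PLXNB1 sit far to the left, with neighbours at -1.28, -1.07 and -0.89, while EPHA4 and SLIT2 sit near 0.

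Other genes of the guidance pathways were read from lists, to set the ligands and receptors beside their partners. Of 7 detected netrin, draxin and RGM ligand genes, 4 were past 2-fold higher and 0 lower (median log2 ratio 1.07). Of the higher genes NTN1, NTN4 and DRAXIN were detected on the radiation-adapted array alone. The bounds of NTN1 and DRAXIN, 1.07 and 1.08, lay just past the limit, and the median is the NTN1 bound. NTN4, a basement membrane netrin, was at least 5.72-fold higher and RGMB, a BMP co-receptor that binds neogenin, was 1.79-fold lower. Of 6 netrin and RGM receptor genes, 1 was higher and 1 lower, both of the UNC5 family of repulsive netrin receptors. UNC5A was at least 5.59-fold higher (signals of 134.2 and 415.7) and UNC5B was 3.35-fold lower (312.8 and 189.6).

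Signalling partners went both ways. Of 15 detected Eph and ephrin effector genes, 2 passed 2-fold upward and 1 downward (median 0.42). NGEF encodes ephexin-1, an exchange factor that acts downstream of EPHA4. NGEF had a signal of 552.5 in the wild type (detection p-value 0) and 177.2 in the radiation-adapted cells (0.0013). It was 8.42-fold lower, the direction opposite to EPHA4. This ratio leans on a dim radiation-adapted value, and the processing alternatives given below cover the ligand and receptor genes only. NCK2, an adaptor that binds phosphorylated ephrin-B, was 3.25-fold higher, beside EFNB1. Of 18 semaphorin and plexin co-receptor and effector genes, 4 passed 2-fold upward and 2 downward (median -0.22). DPYSL4, a member of the collapsin response mediator family, had signals of 113.9 and 1386.5 and was at least 25.5-fold higher. CDK5, a kinase that acts in semaphorin signalling, was 2.64-fold lower.

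Of 14 Slit and Robo effector genes, 4 were higher and 0 lower (median 0.10), from GPC1, a heparan sulfate proteoglycan that binds Slit, at least 2.88-fold higher, to EVL, an actin elongation factor, 1.77-fold lower. Of 3 detected VEGF ligand genes, PGF was 2.06-fold higher and VEGFB had the lowest ratio, 0.14, and the receptor genes FLT1, KDR and FLT4 were not well above background. Across these lists, 20% to 57.1% of the detected genes passed 2-fold in either direction, where 22.6% of all detected genes did.

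**Figure D4:**
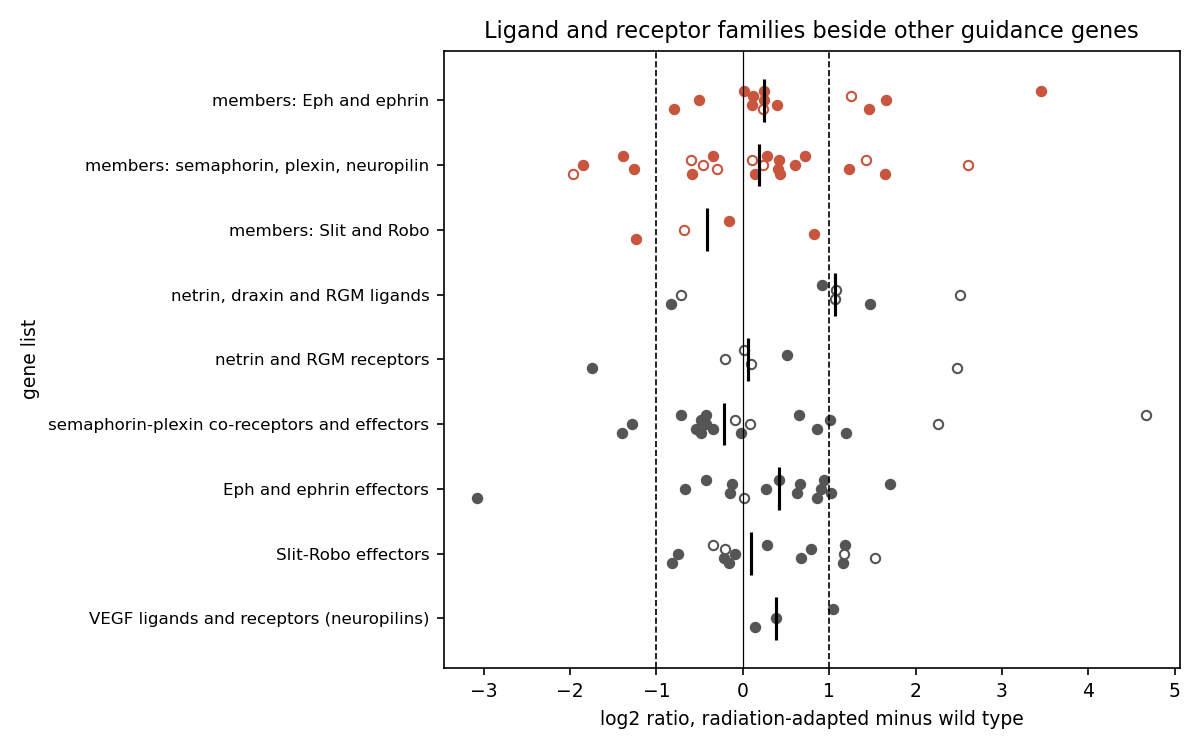
Log2 ratio (x axis) of the detected axon guidance ligands and receptors (red) and of other guidance genes (grey) by list (y axis), 1 point per gene, open points detected on 1 array only, with a black tick at each list's median. NGEF lies at -3.07 among the Eph effectors, and the netrin, draxin and RGM ligands have the highest median, 1.07.

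The cell identity was read from markers. All 12 Ewing sarcoma markers named were detected on both arrays, CD99 and NKX2-2 among them, with 6 past 2-fold higher and 2 past it in the other direction. Several guidance genes are known from vessels. Of 10 endothelial markers 8, including PECAM1, CDH5 and VWF, were not well above background on either array, and the summed signal of the detected ESAM and CLDN5 went from 326.2 to 1082.4. Of 11 leukocyte markers 6 were detected, 1 past 2-fold higher (CD68, 3.44-fold) and 4 lower, with PTPRC not well above background. Their summed signal of 11618.8 and 1971.1 was mostly that of ITGB2, at 10563.9 and 641.7. Of 9 fibroblast markers 8 were detected, 2 past 2-fold higher and 4 lower (median log2 ratio -1.14). Their summed signal still went from 2557.7 to 3442.7, since THY1 (145.5 and 1509.8) and COL1A1 (186.9 and 813.7) outweighed DCN (554.4 and 126.1), LUM (319.9 and 129.1) and the others. Of 8 epithelial markers 1 was detected (KRT8, 273.7 and 150.6). Of 11 neuron and Schwann cell markers listed, 9 had a named probe. Of these, 3 were detected in the wild type and 6 in the radiation-adapted cells, with SOX10 not well above background. SNAP25 was at least 4.51-fold higher and SYT1 was 4.22-fold lower, and the summed signal was 3837.7 and 2544.8. Past 2-fold in either direction were 66.7% of the detected Ewing sarcoma markers, 83.3% of the leukocyte and 75% of the fibroblast markers. The share was 33.3% for the neuron and Schwann cell markers, 50% of 2 endothelial and 100% of 1 epithelial marker. Over all detected genes it was 22.6%. The part of such marker differences in the ratios above was not tested.

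The calls differed in how they stood up to processing. EPHA4, EFNB1 and SEMA4D passed 2-fold under every alternative that gave them a value, with log2 ratios from 2.13 to 3.87, from 1.44 to 1.83 and from 1.33 to 3.72. The other 10 fell under 2-fold in at least 1 of 10 alternatives, and none of the 13 changed sign. All 10 fell under it when no background was removed, a setting that shrinks every dim ratio. Not all 10 were dim. SEMA3E and SLIT2, with brighter signals on both arrays, fell just short of the limit there, at log2 ratios of 0.98 and -0.90. EPHB1, SEMA4B and SEMA3C also fell under 2-fold with an offset of 50, SLIT2 and SEMA3C with no scaling between the arrays, and SEMA4G at its dimmer probe.

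**Figure D5:**
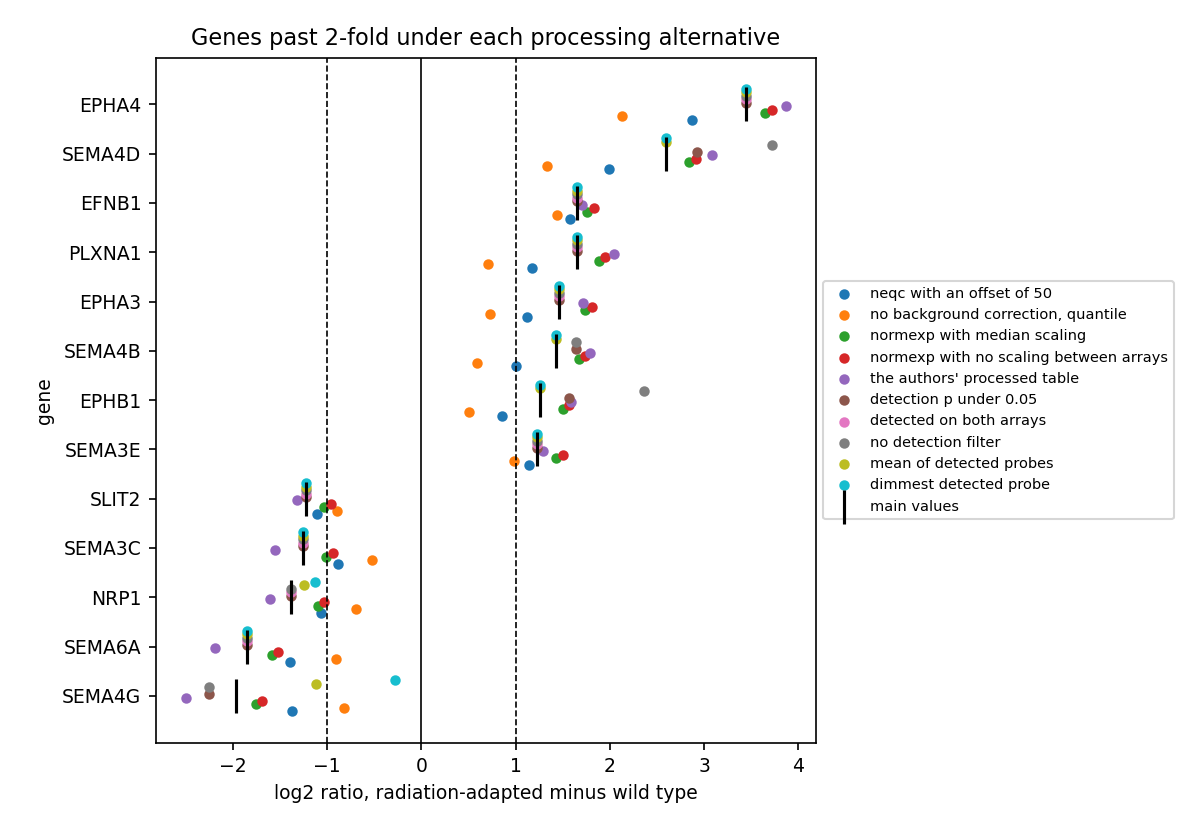
Log2 ratio (x axis) of the 13 axon guidance genes past 2-fold (y axis) in the main values (black ticks) and under each of 10 processing alternatives (coloured points), with dashed lines at 2-fold. Without background correction (orange) 3 genes, EPHA4, SEMA4D and EFNB1, stay past 2-fold.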

How the data were processed

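The deposited unprocessed table gives, per the file headers, 1 average signal and 1 detection p-value per probe and array. The signals are linear intensity values, and the deposited values themselves show no background subtraction and no scaling. A second table, processed and deposited by the authors, also has linear intensity values. Its columns, once sorted, differ by at most 0.2 units and reach -28.6, as quantile-normalized and background-subtracted values do. The sources used here do not give how either table was made. Per the labels' protocols, RNA was extracted with Trizol and amplified to biotinylated cRNA.

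Signals were corrected with neqc of limma 3.58.1 in R 4.3.3 (offset of 16, negative controls estimated through detection p-values, quantile normalization, log2). Ratios of dim probes are shrunk by this offset. The steps were run on simulated data in which only probes well above background were changed, so changes in dim probes were not covered. Detected meant a detection p-value under 0.01. Of the 47323 probes, 16220 were detected in the wild type and 17718 in the radiation-adapted cells; the number of arrays limits the precision. Gene names came from the platform annotation: 30113 probes have 1 gene, 8 have several and were left out, and 17202 are unnamed here. RefSeq's table of GRCh38.p14 matched 30074 probes. Each gene took its detected probe with the highest mean. Dim values were floored at log2 5.60 (wild type) or 5.36 (radiation-adapted). Probes were not checked for shared sequence between related genes. Genes were counted by a fixed rule of at least 2-fold, since 1 array per group allows no test. Every detected member may be named. The rule was to print signals and detection p-values for members past 2-fold, the highest and lowest of each family and members whose probes disagree. Signals of some other members, such as EPHB4 and SEMA3A, are printed outside this rule. For the other lists the highest and lowest ratios are named, and signals of some of these were added after their values were seen. Members and lists were chosen with earlier results of these data known. A further list of downstream genes is not reported here. Alternatives changed the offset, background, scaling, detection, probe and fold rule.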

Additional observations from a re-analysis of the deposited data

How the results depend on the processing

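The count of higher genes, 8, was from 6 to 10 under 8 other settings. It was 3 with no background correction, 5 with detection required on both arrays and 4 with a 3-fold rule. With a 1.5-fold rule it was 11. The count of lower genes, 5, was 0 with no background correction, 3 with no scaling between arrays, 2 with a 3-fold rule and 9 with a 1.5-fold rule, and from 4 to 6 otherwise. The median log2 ratio, 0.23 beside -0.01 over all genes, was 0.08 (-0.01) with no background correction, 0.41 (0.16) with median scaling, 0.48 (0.23) with no scaling and from 0.14 to 0.26 otherwise. Of the called genes, 61.5% were higher among the guidance genes (54.6% among all genes), 64.3% (67.0%) with median scaling, 76.9% (71.7%) with no scaling and 100% (55.3%) with no background correction. Subtracting the neighbour median, an alternative chosen after seeing the data, gave 10 higher and 4 lower genes (background 11.6% and 9.39%). Of 379 single-gene values under the alternatives, 354 moved by less than the probe SD, 25 by more, and 0 of the called genes changed sign, while ROBO1 and SEMA4F, both within 2-fold, did so under 2 settings each. No paired analysis was possible because each group has 1 sample, and no replicate could be left out. Dim signals limit the ratios of EPHA3, EPHA4 and PLXNA1, whose wild-type probes lie near the detection limit. They also limit those of SEMA3C and SEMA6A, whose radiation-adapted signals (172.2 and 178.8) lie near it. In the other lists the same holds for NGEF (177.2) and UNC5B (189.6).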
